A study of Mus musculus with 6 samples.

Results

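Ribosome biogenesis is the making of ribosomes in the nucleolus. RNA polymerase I (Pol I) copies the ribosomal DNA into a long precursor RNA, small nucleolar particles guide the chemical modification of that RNA, and large sets of processing factors cut it and assemble the small and the large subunit. The activity of this pathway follows growth, and in muscle it changes when fibres gain or lose mass. The genes described here are 58 named genes of that pathway out of 24411 gene symbols in the count files. They were chosen by name from a list, which the files hold in full, and were sorted by known role into Pol I transcription (8 genes), box C/D particles (3), H/ACA particles (5), small subunit processing (19), large subunit processing (17), nucleolar proteins with several roles (5) and the precursor RNA itself, Rn45s.

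The cells were myotubes of C2C12, an immortalised wild-type mouse myoblast line that fuses into multinucleated muscle cells when growth serum is replaced by 2% horse serum. Fully differentiated cultures were given 10 µM Sardomozide dihydrochloride or the solvent DMSO for 72 h. Sardomozide inhibits the product of Amd1, a decarboxylase of S-adenosylmethionine that feeds polyamine synthesis. There were 3 libraries of each group, and nothing says whether they came from separate cultures, so each p-value reflects no more than how far these libraries differ among themselves, and that may be a technical spread.

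Library totals ran from 30820423 to 36709804 counts in the Sardomozide libraries and from 25496323 to 32108033 counts in the DMSO libraries. The lowest count of any of the 58 genes in any library was 256, and all 58 passed the filter on low counts. Amd1 itself had no count in the Sardomozide libraries and 0, 3 and 0 counts in the DMSO libraries, so it gives no check of the labels. These counts cannot be read as absence of the transcript. How reads that match several places were counted is not given, and the reason for the low counts was not tested. Of 9 myotube markers tested, Acta1, Myh3, Myh1 and Des among them, 0 passed the test between the groups, and Acta1 averaged 4808 CPM with Sardomozide and 4782 CPM with DMSO. The log2 fold change was above 0 for 6 of the 9 and below 0 for 3. It was −0.39 for Actn2, with 209, 166 and 168 CPM with Sardomozide and 225, 264 and 224 CPM with DMSO. Ttn had 1609, 4042 and 1371 CPM with Sardomozide and 1744, 1725 and 1500 CPM with DMSO, so Sardomozide library 2 stood apart for that gene. Of 10 markers of other lineages, Adipoq, Plin1, Ibsp, Acan and Ptprc had 0 counts in all 6 libraries. The summed level of the 10 ran from 69.5 to 80.2 CPM with Sardomozide and from 68.5 to 70.4 CPM with DMSO, nearly all of it from Sox9, a cartilage factor (68.7 to 79.6 CPM with Sardomozide, 67.7 to 70.1 CPM with DMSO). CPM, the scale of levels used here, is the count divided by the library total after TMM scaling, expressed as counts per 1e+06.

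Of the 58 genes, 21 rose with Sardomozide, 1 fell and 36 did not pass the quasi-likelihood test of edgeR at an adjusted p under 0.05 (Benjamini-Hochberg over all genes tested). That is 36.2% higher and 1.72% lower, where 7.88% of the 13076 genes tested were higher and 8.45% were lower. The 58 genes were chosen with earlier results of these data known, so these shares only describe them. The rises were small. They ran from 10.6% for Bop1 to 25.8% for Nop2, with a median of 20.7%. The log2 fold change was above 0 for 51 of the 58 genes (87.9%), against 49.8% of all genes tested. The median of the 58 genes was 0.15 on the log2 scale, against −0.00082 over all genes. In 35 of the 58 genes every Sardomozide library lay above every DMSO library, and in 2, Rrp1 and Ltv1, every one lay below. Of all genes tested, 17% lay wholly above, 16.5% wholly below and 33.5% one or the other. Relative to the DMSO mean of each gene, the median over the 58 genes was 0.16, 0.146 and 0.135 on the log2 scale in Sardomozide libraries 1, 2 and 3, and 0.0088, −0.00139 and −0.0112 in DMSO libraries 1, 2 and 3. The shift of the median was thus of like size in the 3 Sardomozide libraries.

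**Figure D1:**
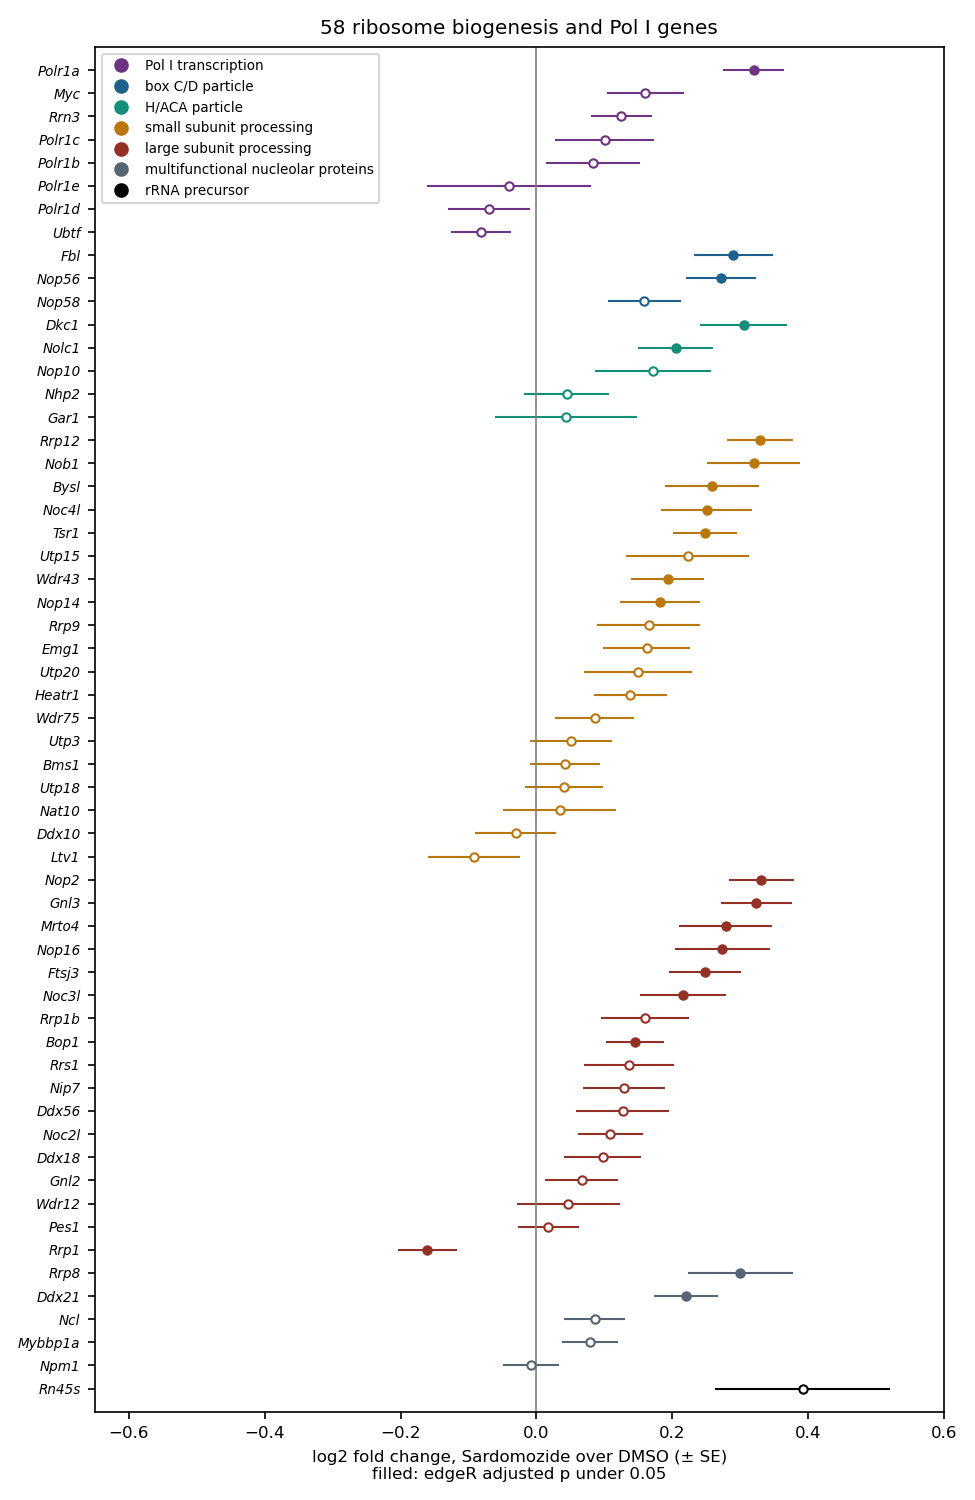
Log2 fold change of Sardomozide over DMSO (x axis) with its standard error for each of the 58 genes (rows), coloured by step. Filled points passed edgeR's test at an adjusted p under 0.05: 21 of them lie right of 0, and Rrp1 lies left of it.

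**Figure D2:**
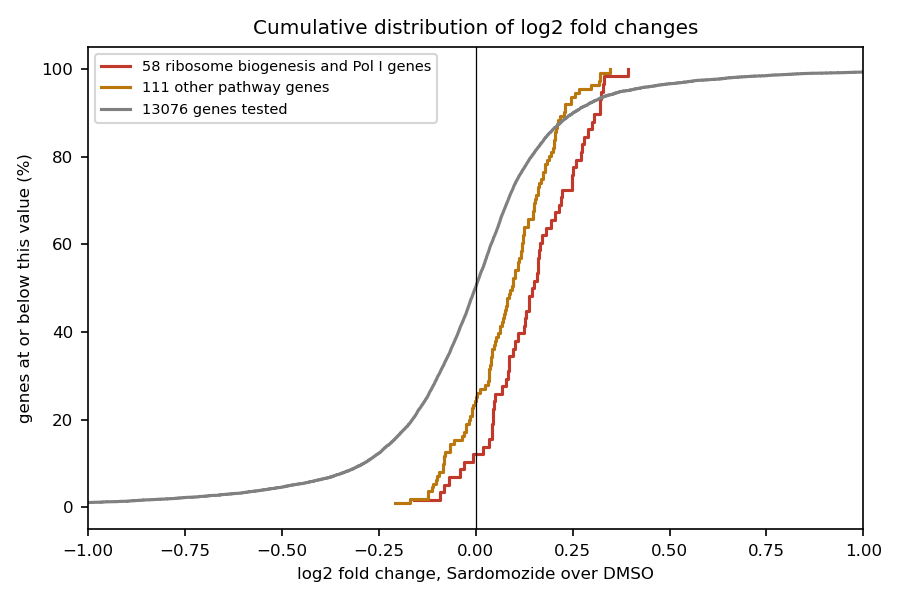
Cumulative distribution of the log2 fold changes of Sardomozide over DMSO: the x axis gives the fold change and the y axis the percent of genes at or below it, for the 58 genes, 111 other genes of the pathway and all 13076 genes tested. The x axis is drawn from −1 to 1. The medians are 0.15, 0.09 and −0.00082. All genes together reach further in both directions, but they are far more genes, so the ranges cannot be compared.

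Some proliferation markers also rose. Rrm2, Mcm2 and Mki67 rose among 11 markers of cycling cells, by 0.19, 0.23 and 0.16 on the log2 scale, and 0 fell (edgeR adjusted p = 0.0086, 0.016 and 0.0443). That is 27.3% of the 11, where 7.88% of all genes tested rose. Relative to the DMSO means, the median over the 11 was −0.0333, 0.152 and 0.203 on the log2 scale in Sardomozide libraries 1, 2 and 3. For the 58 genes it was 0.16, 0.146 and 0.135, so the markers did not follow them library by library. The summed level of the 11 markers was 564, 634 and 634 CPM in Sardomozide libraries 1, 2 and 3, against 569, 556 and 536 CPM in DMSO libraries 1, 2 and 3. On this sum Sardomozide library 1 lay within the range of the DMSO libraries, and libraries 2 and 3 lay above it. The log2 fold change was above 0 for 9 of the 11 markers and below 0 for 2, with a median of 0.10. Of 7 genes listed as markers of undifferentiated myoblasts 0 passed. The log2 fold change was above 0 for Pax7 (0.09) and below 0 for the other 6, with a median of −0.11 over the 7, and every Sardomozide library lay below every DMSO library for Myod1 and Cdh15 among them. Their summed level ran from 1089 to 1140 CPM with Sardomozide and from 1164 to 1200 CPM with DMSO. Most of this sum came from Cdh15 (574 to 617 CPM with Sardomozide, 634 to 654 CPM with DMSO). Myod1 came next (246 to 263 CPM with Sardomozide, 273 to 283 CPM with DMSO). Whether the 7 genes mark only undifferentiated cells in these cultures was not tested. The part of cycling cells in the results on the ribosome genes was not tested. In RNA from whole cultures, fewer cells of a type and less RNA per cell cannot be told apart. The calls of the markers were lost in several fits without a library, with an edgeR adjusted p of 0.0701 for Rrm2 without DMSO replicate 3. For Mcm2 the edgeR adjusted p was 0.0659 and 0.0699 without DMSO replicates 1 and 2, and 0.0577 and 0.0529 without Sardomozide replicates 2 and 3. For Mki67 it was 0.0943, 0.0886 and 0.16 without DMSO replicates 1, 2 and 3, and 0.231 and 0.0793 without Sardomozide replicates 2 and 3.

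The start sites of these genes were searched for letters known as binding motifs. RefSeq promoter windows on build GRCm38.p6, from 250 bases before to 50 bases after each start, were at hand for 50 of the 58 genes. The E-box CACGTG, which Myc with its partner Max can bind, was in the windows of 9 of the 50 genes (18%), against 8.09% of all genes with a window. It was in 3 of the 18 genes that rose and 6 of the 31 that did not pass. The letters CCGGAAGT, read on both strands and known as a site of ETS factors, were in 13 of the 50 (26%), against 4.31% of all genes. They were in 1 of the 18 genes that rose, Tsr1, and in 12 of the 31 that did not pass. A palindromic CGCG element was in 0 of the 50 windows and in 0.525% of all genes. The genes with a window numbered 27025, more than the 13076 tested, so they include genes with few or no counts here. The 50 genes were not compared with the tested genes alone, so the shares do not show a trait particular to this pathway. None of the motifs overlapped another in these windows, and a match is a description of letters, not of binding. The 100 bases just before the start are shown for the 9 genes with a complete E-box or ETS motif there. Motifs elsewhere in the windows are not shown. Among these are the ETS sites of Tsr1 and Rrn3, which begin at bases −1 and −6, and the E-box of Ltv1, which begins at base 29. Capitals mark CACGTG in the first 3 and CCGGAAGT, or ACTTCCGG where it lies on the other strand, in the other 6.
Nop2: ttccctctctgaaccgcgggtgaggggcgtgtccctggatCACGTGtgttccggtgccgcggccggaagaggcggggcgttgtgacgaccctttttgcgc
Rrn3: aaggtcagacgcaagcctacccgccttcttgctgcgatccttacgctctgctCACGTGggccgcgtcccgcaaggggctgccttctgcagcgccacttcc
Utp18: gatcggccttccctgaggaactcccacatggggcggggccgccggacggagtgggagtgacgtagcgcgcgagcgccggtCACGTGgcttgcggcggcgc
Emg1: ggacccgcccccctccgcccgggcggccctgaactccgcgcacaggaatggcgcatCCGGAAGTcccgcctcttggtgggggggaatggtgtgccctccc
Gar1: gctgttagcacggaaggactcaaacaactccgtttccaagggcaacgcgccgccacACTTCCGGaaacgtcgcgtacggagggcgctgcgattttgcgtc
Heatr1: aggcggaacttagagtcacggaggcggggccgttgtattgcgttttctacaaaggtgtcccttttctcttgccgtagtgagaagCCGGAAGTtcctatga
Ltv1: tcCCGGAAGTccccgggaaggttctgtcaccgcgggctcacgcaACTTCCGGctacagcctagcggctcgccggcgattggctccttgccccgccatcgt
Nhp2: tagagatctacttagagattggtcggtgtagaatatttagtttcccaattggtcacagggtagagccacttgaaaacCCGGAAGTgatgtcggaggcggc
Polr1c: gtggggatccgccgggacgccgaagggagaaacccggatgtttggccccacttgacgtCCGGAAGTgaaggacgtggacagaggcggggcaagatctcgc
Of these, Nop2 (chr6:125131783-125131882, plus strand) belongs to a gene that rose. The stretches of Rrn3 (chr16:13780599-13780698, plus strand), Utp18 (chr11:93885767-93885866, minus strand), Emg1 (chr6:124712179-124712278, minus strand) and Gar1 (chr3:129831397-129831496, minus strand) belong to genes that did not pass. So do those of Heatr1 (chr13:12395275-12395374, plus strand), Ltv1 (chr10:13193138-13193237, minus strand), Nhp2 (chr11:51619673-51619772, plus strand) and Polr1c (chr17:46248046-46248145, minus strand).

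Among the Pol I transcription genes, Polr1a rose and the other 7 did not pass. That is 12.5% of the 8, where 7.88% of all genes tested rose. The share that rose was 50% for the box C/D and H/ACA genes together, 36.8% for small subunit processing and 41.2% for large subunit processing. It was 40% for the nucleolar proteins with several roles. Polr1a, on chromosome 6 from 71909053 to 71984935 (GRCm38, as all gene coordinates here), encodes the largest and catalytic subunit of Pol I. It had 124, 127 and 121 CPM in the Sardomozide libraries, against 99.2, 102 and 96.1 CPM in the DMSO libraries. The groups were far apart for this gene, with a gap several times the spread within either (log2 fold change 0.32 ± 0.044 SE, edgeR adjusted p = 5.11e-05). Polr1b, which encodes the other large catalytic subunit, had 31.1, 30.6 and 31.7 CPM with Sardomozide and 31.7, 28.6 and 28.0 CPM with DMSO. Its groups overlapped, because DMSO library 1 was as high as the Sardomozide libraries (log2 fold change 0.08 ± 0.069 SE, edgeR adjusted p = 0.459).

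Polr1c and Polr1d encode subunits that Pol I shares with RNA polymerase III. Polr1c had 25.9, 26.1 and 25.8 CPM with Sardomozide and 25.5, 24.0 and 23.1 CPM with DMSO. All Sardomozide libraries lay above the DMSO libraries, but the difference was small (log2 fold change 0.10 ± 0.072 SE, edgeR adjusted p = 0.383). Polr1d had 43.7, 44.2 and 41.3 CPM with Sardomozide and 47.2, 45.9 and 42.6 CPM with DMSO, with overlapping groups and a log2 fold change of −0.07 ± 0.06 SE (edgeR adjusted p = 0.477). Polr1e, a gene of a smaller Pol I subunit, had 10.7, 12.9 and 10.7 CPM with Sardomozide and 10.1, 11.5 and 13.6 CPM with DMSO. It had the lowest CPM of the Pol I genes, and its spread within each group exceeded the difference of the means (log2 fold change −0.04 ± 0.12 SE, edgeR adjusted p = 0.864).

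The factors that bring Pol I to the ribosomal DNA did not pass either. Ubtf encodes the upstream binding factor that coats ribosomal genes. It had 139, 133 and 134 CPM with Sardomozide and 142, 138 and 150 CPM with DMSO (log2 fold change −0.08 ± 0.045 SE, edgeR adjusted p = 0.234). Sardomozide library 1 overlapped the DMSO range. Rrn3 encodes the factor that makes Pol I competent to start, and had 132, 127 and 123 CPM with Sardomozide and 117, 121 and 113 CPM with DMSO. Its groups did not overlap, and it missed the threshold (log2 fold change 0.13 ± 0.045 SE, edgeR adjusted p = 0.0638). Myc encodes a transcription factor known to raise many genes of the pathway. It had 72.0, 68.7 and 64.3 CPM with Sardomozide and 63.9, 57.3 and 62.5 CPM with DMSO. The groups did not overlap, though Sardomozide library 3 and DMSO library 1 were close (log2 fold change 0.16 ± 0.057 SE, edgeR adjusted p = 0.0604). Myc passed with no filter on low counts (edgeR adjusted p = 0.033) and without Sardomozide replicate 3 (0.0391).

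The product of Pol I is represented by Rn45s, the symbol for the ribosomal RNA precursor. It took 1.416, 1.372 and 1.174% of all counts in Sardomozide libraries 1, 2 and 3, against 1.168, 0.9413 and 0.9091% in DMSO libraries 1, 2 and 3. The Wilson 95% interval ran from 1.1703 to 1.1779% for Sardomozide library 3 and from 1.1641 to 1.1724% for DMSO library 1, so these overlapped at this depth. The means were 1.32 ± 0.129% with Sardomozide and 1.01 ± 0.141% with DMSO (SD, n = 3 each). Between the shares p was 0.1 (exact permutation test, two-sided), which 3 against 3 libraries cannot go below. The shares are not TMM-scaled. In CPM the groups overlapped, with 11583 CPM in Sardomozide library 3 and 11717 CPM in DMSO library 1. In the test over all genes Rn45s had a log2 fold change of 0.39 ± 0.13 SE and did not pass (edgeR adjusted p = 0.107). Its call depended on the model and on single libraries. With all 6 libraries it passed with limma-voom (adjusted p = 0.00457) and with edgeR without robust estimation (adjusted p = 0.00542), and not with DESeq2 (adjusted p = 0.0535). It also passed without DMSO replicate 1 (edgeR adjusted p = 0.000805) and without Sardomozide replicate 3 (0.0134). The precursor also contains the sequences of the mature ribosomal RNAs, so reads of these cannot be told from reads of the precursor. The labels name an Illumina kit without saying how ribosomal RNA was kept out of the libraries, and a difference in that step was not tested. Ribosomal genes lie in many repeats, and how reads that match several places were counted is not given in the sources used here.

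**Figure D3:**
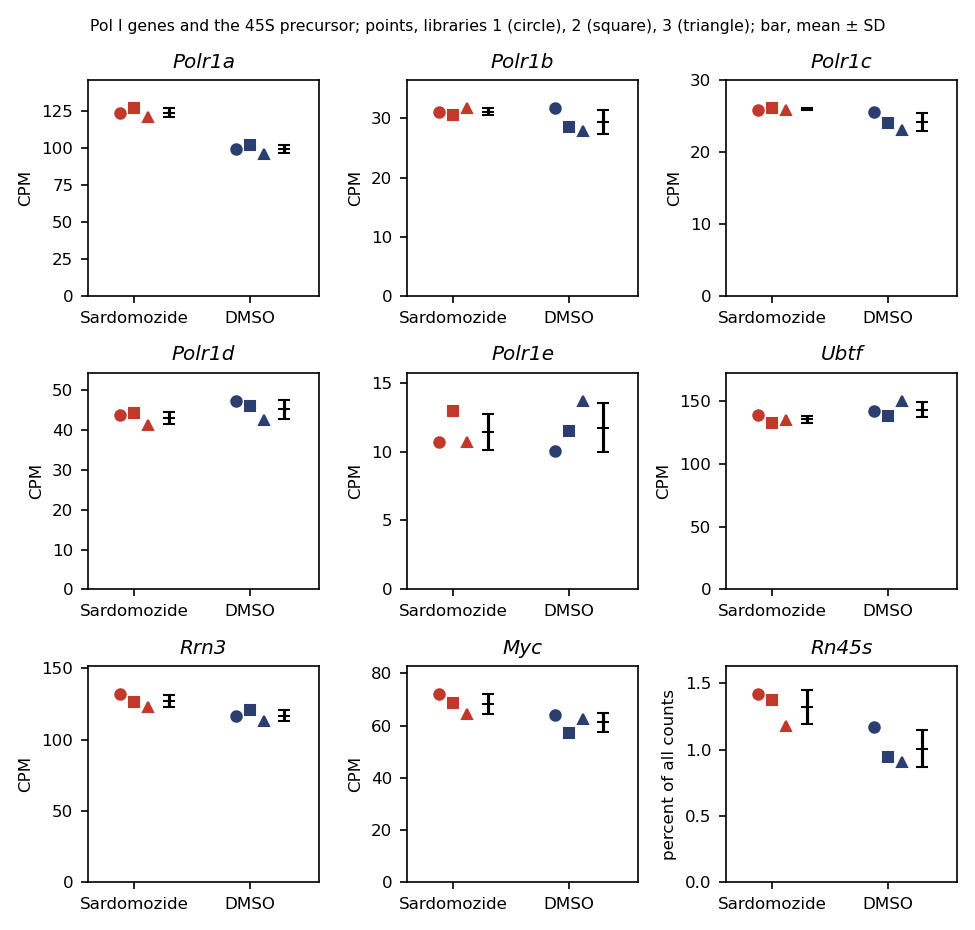
Level of the 8 Pol I transcription genes (CPM, y axes from 0) and share of all counts taken by Rn45s (percent) in each library, Sardomozide left and DMSO right, with mean ± SD beside the points. For Polr1a the lowest Sardomozide library is at 121 CPM and the highest DMSO library at 102 CPM, whereas for Rn45s the closest libraries are at 1.174% and 1.168%.

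Of the 3 box C/D genes, which build the particles that direct methylation of ribose in the ribosomal RNA, 2 rose. Fbl, on chromosome 7 from 28169710 to 28179269, encodes the methyltransferase fibrillarin. It had 48.1, 46.5 and 48.8 CPM with Sardomozide and 40.5, 37.7 and 39.1 CPM with DMSO. The groups were well apart (log2 fold change 0.29 ± 0.058 SE, edgeR adjusted p = 0.00159). Nop56, on chromosome 2 from 130274430 to 130279313, encodes a scaffold protein of the particle and had 82.1, 77.7 and 86.1 CPM with Sardomozide, against 66.1, 68.4 and 69.1 CPM with DMSO. Its groups did not overlap (log2 fold change 0.27 ± 0.051 SE, edgeR adjusted p = 0.000992). Nop58, the gene of the paired scaffold protein, had 76.2, 76.5 and 74.4 CPM with Sardomozide and 66.2, 64.0 and 73.2 CPM with DMSO. DMSO library 3 came close to the Sardomozide libraries, and the gene did not pass by a narrow margin (log2 fold change 0.16 ± 0.054 SE, edgeR adjusted p = 0.05). Nop58 passed with upper-quartile scaling (edgeR adjusted p = 0.0491), with no filter on low counts (0.0284) and without DMSO replicate 3 (0.0174).

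Of the 5 genes sorted under H/ACA particles, which turn uridine into pseudouridine, 2 rose. Dkc1, on chromosome X from 75095854 to 75109777, encodes the pseudouridine synthase dyskerin. It had 49.3, 44.5 and 43.1 CPM with Sardomozide and 38.3, 37.5 and 35.1 CPM with DMSO. Every Sardomozide library was above every DMSO library (log2 fold change 0.31 ± 0.065 SE, edgeR adjusted p = 0.00263). Nolc1, on chromosome 19 from 46075863 to 46085530, encodes a phosphoprotein that accompanies the particles and had 126, 112 and 111 CPM with Sardomozide, against 108, 97.3 and 98.0 CPM with DMSO. In each group library 1 was the highest (log2 fold change 0.21 ± 0.055 SE, edgeR adjusted p = 0.0147). Leaving out DMSO library 2, DMSO library 3 or Sardomozide library 1 ended the call of Nolc1 (edgeR adjusted p = 0.0733, 0.0714 and 0.0674). The genes of the core proteins other than dyskerin did not pass. These genes, Nop10, Nhp2 and Gar1, differed by 0.17 ± 0.085, 0.04 ± 0.063 and 0.04 ± 0.1 SE on the log2 scale (edgeR adjusted p = 0.183, 0.691 and 0.829), and the groups of all 3 overlapped.

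Small subunit processing held 19 genes, of which 7 rose and 0 fell, with a median log2 fold change of 0.16 over the 19. Rrp12, on chromosome 19 from 41862851 to 41896173, is known from yeast for the maturation and export of subunits. It had 86.7, 85.2 and 87.1 CPM with Sardomozide and 71.6, 68.3 and 66.3 CPM with DMSO (log2 fold change 0.33 ± 0.049 SE, edgeR adjusted p = 9.11e-05). The Sardomozide libraries of Rrp12 were close together and far above the DMSO libraries. Nob1, on chromosome 8 from 107412486 to 107425051, encodes the nuclease that makes the final cut at the end of the small subunit RNA. It had 29.6, 29.4 and 29.4 CPM with Sardomozide and 23.2, 23.7 and 23.9 CPM with DMSO (log2 fold change 0.32 ± 0.069 SE, edgeR adjusted p = 0.00294). Within each group the 3 libraries of Nob1 were nearly equal. Tsr1, on chromosome 11 from 74898071 to 74909342, acts late in small subunit assembly and had 95.1, 97.5 and 94.0 CPM with Sardomozide, against 83.3, 80.0 and 78.0 CPM with DMSO (log2 fold change 0.25 ± 0.047 SE, edgeR adjusted p = 0.000992). Its exons overlap those of Srr on the opposite strand over 32.3% of their length, and Srr had a log2 fold change of −0.11 ± 0.062 SE (edgeR adjusted p = 0.231).

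The other 4 small subunit genes that rose were less firm. Bysl, on chromosome 17 from 47599331 to 47611492, encodes bystin and had 82.7, 73.7 and 72.7 CPM with Sardomozide, against 56.6, 68.8 and 65.9 CPM with DMSO (log2 fold change 0.26 ± 0.069 SE, edgeR adjusted p = 0.017). DMSO library 1 was the lowest of all and Sardomozide library 1 the highest. The call was lost without either of them (edgeR adjusted p = 0.0821 without DMSO replicate 1 and 0.0645 without Sardomozide replicate 1). Noc4l, on chromosome 5 from 110648418 to 110653417, had 35.0, 36.9 and 35.7 CPM with Sardomozide and 27.9, 31.7 and 30.7 CPM with DMSO (log2 fold change 0.25 ± 0.067 SE, edgeR adjusted p = 0.0137, and 0.0866 without DMSO replicate 1). In yeast its product binds that of Nop14. Nop14, on chromosome 5 from 34638536 to 34660148, had 72.6, 62.6 and 64.4 CPM with Sardomozide and 58, 56.9 and 61.0 CPM with DMSO. Sardomozide library 1 stood above the rest of its group (log2 fold change 0.18 ± 0.059 SE, edgeR adjusted p = 0.0395). Nop14 missed the threshold when DMSO library 1, DMSO library 2, Sardomozide library 1 or Sardomozide library 3 was left out (edgeR adjusted p = 0.123, 0.14, 0.195 and 0.0521), nor with DESeq2 or limma-voom (adjusted p = 0.0568 and 0.0564). Wdr43, on chromosome 17 from 71615895 to 71659031, encodes a component of the early small subunit complex and had 84.9, 84.8 and 76.7 CPM with Sardomozide, against 69.2, 75.4 and 70.8 CPM with DMSO. Its lowest Sardomozide library was just above its highest DMSO library (log2 fold change 0.19 ± 0.054 SE, edgeR adjusted p = 0.0171). Wdr43 missed it when DMSO library 1, DMSO library 3, Sardomozide library 1 or Sardomozide library 2 was left out (edgeR adjusted p = 0.093, 0.0665, 0.0553 and 0.0572). The number of small subunit genes that rose was 3 without DMSO replicate 1 and 4 without Sardomozide replicate 1.

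The 12 small subunit genes that did not pass had log2 fold changes from −0.09 for Ltv1 to 0.22 for Utp15. Utp15, Emg1, Heatr1 and Wdr75 had every Sardomozide library above every DMSO library without passing. Utp15, a gene of the early complex that also acts in Pol I transcription, had 20.0, 19.7 and 22.7 CPM with Sardomozide and 18.3, 19.1 and 16.0 CPM with DMSO (edgeR adjusted p = 0.101). Ltv1, which in yeast serves export of the small subunit, had 33.9, 30.0 and 34.2 CPM with Sardomozide and 35.1, 35.0 and 34.5 CPM with DMSO, with every Sardomozide library below (edgeR adjusted p = 0.395). The remaining Rrp9, Utp3, Utp18, Utp20, Bms1, Nat10 and Ddx10 had overlapping groups. Utp20 had 45.3, 54.2 and 44.2 CPM with Sardomozide and 47.0, 43.3 and 39.5 CPM with DMSO, with Sardomozide library 2 the highest. Nat10, the gene of an RNA acetyltransferase, had 47.5, 38.9 and 50.5 CPM with Sardomozide and 47.4, 43.7 and 42.6 CPM with DMSO, a spread in which Sardomozide libraries lay both lowest and highest.

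Large subunit processing held 17 genes, of which 7 rose and 1 fell, with a median log2 fold change of 0.14 over the 17. Nop2, on chromosome 6 from 125131909 to 125144753, encodes a methyltransferase of the large subunit RNA, and its promoter stretch with an E-box is printed above. It had 94.3, 90.8 and 93.2 CPM with Sardomozide and 71.5, 76.6 and 73.0 CPM with DMSO (log2 fold change 0.33 ± 0.048 SE, edgeR adjusted p = 7.42e-05). Nop2 had the largest log2 fold change of the genes that rose. Gnl3, on chromosome 14 from 31012433 to 31019152, encodes the nucleolar GTPase nucleostemin and had 68.9, 65.9 and 70.2 CPM with Sardomozide, against 53.6, 55.8 and 54.3 CPM with DMSO (log2 fold change 0.32 ± 0.052 SE, edgeR adjusted p = 0.000192). The gap between the groups of Gnl3 exceeded the range within each. Ftsj3, on chromosome 11 from 106249142 to 106256079, encodes a methyltransferase whose yeast counterpart is Spb1. It had 123, 109 and 114 CPM with Sardomozide and 104, 94.7 and 93.6 CPM with DMSO (log2 fold change 0.25 ± 0.053 SE, edgeR adjusted p = 0.00287). Mrto4, on chromosome 4 from 139347435 to 139352576, encodes a protein that in yeast holds the place of the ribosomal stalk during assembly. It had 30.9, 33.9 and 34.4 CPM with Sardomozide and 26.7, 27.8 and 27.3 CPM with DMSO (log2 fold change 0.28 ± 0.069 SE, edgeR adjusted p = 0.0077). Neither gene had overlapping groups.

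Nop16, Noc3l and Bop1 also rose, and each lost its call without some library. Nop16, on chromosome 13 from 54584185 to 54590090, had 41.6, 37.2 and 35.6 CPM with Sardomozide and 31.7, 30.1 and 33.0 CPM with DMSO (log2 fold change 0.27 ± 0.07 SE, edgeR adjusted p = 0.0101). It did not pass without DMSO replicate 2 or Sardomozide replicate 1 (edgeR adjusted p = 0.0568 and 0.0576). Noc3l, on chromosome 19 from 38788128 to 38819237, is known from yeast for transport of the large subunit precursor. It had 37.3, 35.9 and 38.3 CPM with Sardomozide and 33.4, 31.5 and 31.2 CPM with DMSO (log2 fold change 0.22 ± 0.064 SE, edgeR adjusted p = 0.0239). The call ended when DMSO library 2, DMSO library 3 or Sardomozide library 3 was left out (edgeR adjusted p = 0.0823, 0.0929 and 0.0835). Bop1, on chromosome 15 from 76452989 to 76477277, had 168, 176 and 179 CPM with Sardomozide and 156, 158 and 159 CPM with DMSO (log2 fold change 0.15 ± 0.043 SE, edgeR adjusted p = 0.023). The call of Bop1 held in the fit without Sardomozide replicate 1. It ended when any DMSO library (1, 2, 3) or Sardomozide library 2 or 3 was left out (edgeR adjusted p = 0.0894, 0.0679, 0.0603, 0.0533 and 0.0948). The protein Bop1 acts in a complex with Pes1 and Wdr12, whose genes did not pass. Pes1 had 95, 95.6 and 92.3 CPM with Sardomozide and 93.4, 93.8 and 92.3 CPM with DMSO, and Wdr12 had a log2 fold change of 0.05 ± 0.076 SE (edgeR adjusted p = 0.837 and 0.734). Of the large subunit genes, 4 rose without DMSO replicate 2.

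Rrp1, on chromosome 10 from 78400384 to 78413043, was the 1 gene of the 58 that fell. Its yeast counterpart is needed for large subunit processing. It had 169, 159 and 161 CPM with Sardomozide and 183, 185 and 178 CPM with DMSO, with no overlap (log2 fold change −0.16 ± 0.043 SE, edgeR adjusted p = 0.0136). Leaving out DMSO library 1, DMSO library 2 or Sardomozide library 3 ended the call (edgeR adjusted p = 0.054, 0.059 and 0.0509). Rrp1b, the related gene on chromosome 17 from 32036100 to 32062865, went the other way without passing. It had 31.9, 33.4 and 33.4 CPM with Sardomozide and 29.0, 29.4 and 29.9 CPM with DMSO (log2 fold change 0.16 ± 0.065 SE, edgeR adjusted p = 0.0996). The other large subunit genes that did not pass had log2 fold changes from 0.02 for Pes1 to 0.14 for Rrs1. Among them Rrs1, Nip7, Noc2l and Ddx18 had every Sardomozide library above every DMSO library, while Ddx56, Gnl2, Wdr12 and Pes1 overlapped.

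Of the 5 nucleolar proteins with several roles, the genes of 2 rose. Ddx21, on chromosome 10 from 62580251 to 62602281, encodes an RNA helicase that binds ribosomal and small nucleolar RNA. It had 220, 208 and 217 CPM with Sardomozide and 195, 185 and 173 CPM with DMSO (log2 fold change 0.22 ± 0.047 SE, edgeR adjusted p = 0.00263). Rrp8, on chromosome 7 from 105731730 to 105737385, encodes a methyltransferase of the large subunit RNA that also acts in silencing of ribosomal genes. It had 35.6, 36.6 and 31.5 CPM with Sardomozide and 31.0, 26.1 and 27.3 CPM with DMSO (log2 fold change 0.30 ± 0.077 SE, edgeR adjusted p = 0.0107). Sardomozide library 3 and DMSO library 1 of Rrp8 were close, and the call was lost without DMSO replicate 2 (edgeR adjusted p = 0.0663). The abundant genes of nucleolin and nucleophosmin did not pass. Ncl had 644, 596 and 598 CPM with Sardomozide and 596, 570 and 565 CPM with DMSO. Npm1 had 339, 327 and 325 CPM with Sardomozide and 335, 337 and 324 CPM with DMSO (edgeR adjusted p = 0.206 and 0.925). Mybbp1a had a log2 fold change of 0.08 ± 0.041 SE (edgeR adjusted p = 0.207).

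**Figure D4:**
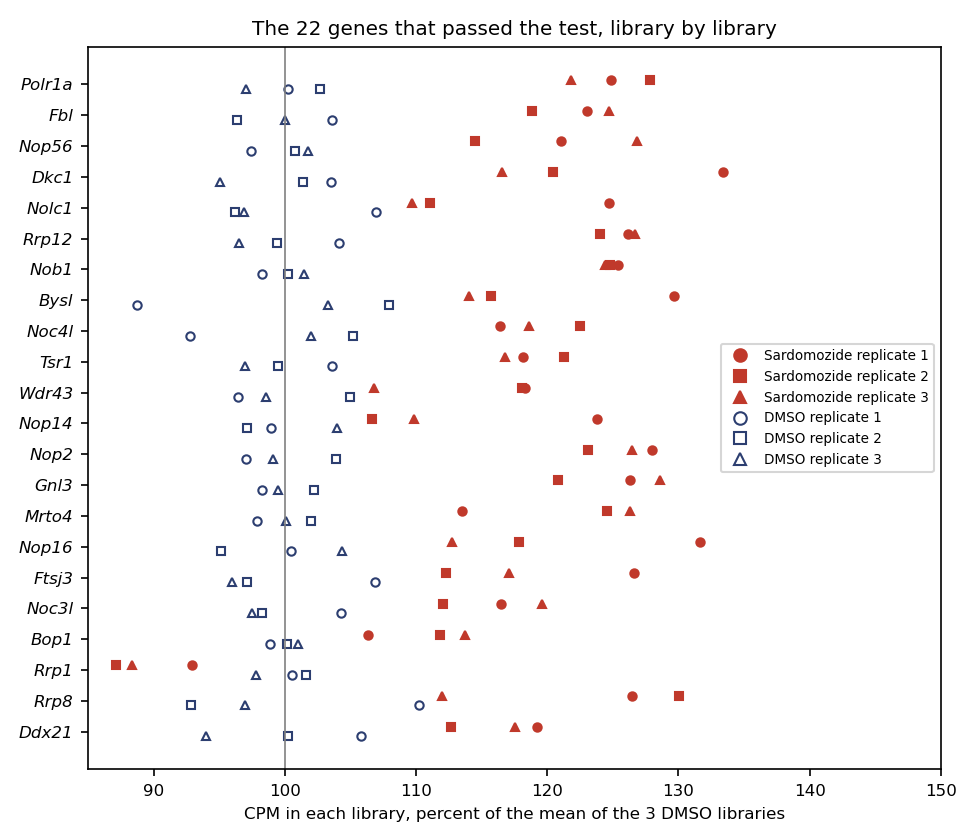
CPM of the 22 genes that passed the test (rows) in each library, as percent of the mean of the 3 DMSO libraries (x axis); x axis not from 0; filled red symbols are Sardomozide libraries and open blue symbols DMSO libraries. For the 21 genes that rose, Sardomozide libraries lie between 106 and 133% and DMSO libraries between 88.8 and 110%, with no overlap within a gene, and for Rrp1 the Sardomozide libraries lie below 100%.

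Partners in a complex were also compared as ratios of counts within a library, which no scaling affects. The 5 pairs were picked with their values already known. The ratio of Polr1a to Polr1b was 3.973, 4.138 and 3.802 with Sardomozide and 3.13, 3.556 and 3.435 with DMSO. The ratio of Dkc1 to Gar1 was 3.618, 3.908 and 3.496 with Sardomozide and 3.05, 2.988 and 3.147 with DMSO. For Bop1 over Pes1 it was 1.765, 1.845 and 1.945 with Sardomozide and 1.67, 1.685 and 1.725 with DMSO. All 3 ratios were higher in every Sardomozide library, as was that of the related genes Rrp1b and Rrp1, at 0.1882, 0.2102 and 0.2073 with Sardomozide and 0.158, 0.1586 and 0.168 with DMSO. For each of these 4 the exact permutation p (two-sided) was 0.1, the lowest that can be reached (0.125 after adjustment over the 5 ratios). The ratio of Nop56 to Nop58 overlapped between the groups (1.078, 1.016 and 1.157 with Sardomozide, 0.9988, 1.069 and 0.9437 with DMSO; exact permutation p = 0.2).

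The genes differed widely in level. Per kilobase of annotated exons, Npm1 stood highest, at 124 ± 2.78 CPM per kilobase with Sardomozide and 125 ± 2.57 with DMSO (SD, n = 3 each). Ncl followed with 60.1 ± 2.65 with Sardomozide and 56.7 ± 1.65 with DMSO. Wdr12 was lowest, at 2.09 ± 0.104 with Sardomozide and 2.02 ± 0.11 with DMSO. These levels use all exons that GENCODE lists for a gene, so a gene with long rare exons reads low.

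The genes lie on 18 chromosomes, and 7 of the 57 with coordinates hold annotated small nucleolar RNA genes within their bodies on the same strand, 21 in all. Nop56 holds 5 of them and Nop58 holds 4. Wdr43, Gnl3 and Ncl hold 3 each. For 20 of the 57 genes some exons overlap exons of a gene on the opposite strand, among them 10 of the genes that passed. The overlap was largest for Tsr1, then Noc2l (20.9% of exon length) and Rrp8 (9.98%, with Ilk), and it was 9.37% for Bysl with Ccnd3, which fell (log2 fold change −0.31 ± 0.042 SE, edgeR adjusted p = 4.14e-05). Whether counting used strand is not given in the sources used here, so reads in such stretches may belong to either gene.

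A list of 111 other genes of the pathway was read in the same way. It too was chosen with earlier results of these data known, so it is no independent check. Of these, 20 rose (18.0%, where 7.88% of all genes tested did) and 0 fell, and the median log2 fold change was 0.09. Of 16 further Pol I subunits and factors 1 rose (6.25%, near the share of all genes tested). It was Polr2f, which encodes a subunit shared by all 3 nuclear RNA polymerases (44.4, 43.6 and 44.0 CPM with Sardomozide, 38.4, 38.5 and 33.8 CPM with DMSO). Of 11 further proteins of nucleolar particles 2 rose, the core protein gene Snu13, listed as Nhp2l1, and Ruvbl1, an ATPase of particle assembly (log2 fold changes 0.17 ± 0.048 and 0.20 ± 0.059 SE, edgeR adjusted p = 0.0191 and 0.0211). Of 35 further small subunit factors 5 rose. The helicase gene Dhx37, Rrp36 and the kinase gene Riok2 had the lowest adjusted p among them, with rises of 0.30 ± 0.06, 0.32 ± 0.072 and 0.25 ± 0.056 SE on the log2 scale (edgeR adjusted p = 0.00178, 0.00382 and 0.00427). Of 37 further large subunit factors 10 rose. Of these Zfp622, the GTPase gene Gtpbp4 and Nol9 had the lowest adjusted p, with rises of 0.27 ± 0.05, 0.23 ± 0.046 and 0.19 ± 0.049 SE on the log2 scale (edgeR adjusted p = 0.000986, 0.00153 and 0.012). Of 12 genes of the RNA exosome 2 rose, Exosc3 and the nuclease gene Exosc10 (0.32 ± 0.077 and 0.22 ± 0.057 SE, edgeR adjusted p = 0.00711 and 0.0122). Without DMSO replicate 1 or 3 or Sardomozide replicate 3 the number that rose was 10, 7 and 13. Without DMSO replicate 3 the edgeR adjusted p was 0.0684 for Polr2f, 0.0833 for Nhp2l1, 0.0715 for Ruvbl1 and 0.0958 for Exosc10. Without DMSO replicate 1 it was 0.0749 for Nhp2l1, 0.0815 for Ruvbl1 and 0.0682 for Nol9. Without Sardomozide replicate 3 it was 0.0654 for Nhp2l1 and 0.0506 for Nol9, and without Sardomozide replicate 2 it was 0.0516 for Ruvbl1.

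Of 11 tested genes of the Myc network, which share or compete for the partner Max, 2 rose and 1 fell. That is 18.2% higher and 9.09% lower, where 7.88% of all genes tested were higher and 8.45% were lower. The log2 fold change was above 0 for 5 of the 11 and below 0 for 6, with a median of −0.012. With 11 genes, these shares only describe the list. Mycl, a relative of Myc, had 51.4, 53.0 and 53.3 CPM with Sardomozide and 41.3, 49.3 and 40.5 CPM with DMSO (log2 fold change 0.26 ± 0.067 SE, edgeR adjusted p = 0.0102). DMSO library 2 stood above the other DMSO libraries for this gene. Mga rose, and Mnt, which encodes a repressor that pairs with Max, fell (0.19 ± 0.056 and −0.21 ± 0.065 SE, edgeR adjusted p = 0.0229 and 0.0292). The call of Mycl was lost without DMSO replicate 1 or 3 (edgeR adjusted p = 0.0672 and 0.0686). That of Mga ended when DMSO library 2, DMSO library 3, Sardomozide library 1 or Sardomozide library 2 was left out (edgeR adjusted p = 0.0908, 0.115, 0.0508 and 0.096). For Mnt the same held of DMSO library 1, DMSO library 2, Sardomozide library 1 and Sardomozide library 2 (edgeR adjusted p = 0.117, 0.0934, 0.0625 and 0.0896).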

How the data were processed

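RNA from 6 libraries was sequenced with paired reads of 150 bases, per the labels' protocols. The authors deposited raw counts, 1 value a gene symbol, in a file of each library. STAR, StringTie, DESeq2, GRCm38 and mm10 appear in the submitters' processing notes without versions. The annotation, the use of strand and the treatment of reads with several matches were not given in the sources used here. Totals ran from 25496323 to 36709804 counts. A count of 0 allows up to 3 counts, and intervals cover counting error only.

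Genes were filtered with filterByExpr (10 counts scaled to library size, 15 in total), scaled by TMM and tested by quasi-likelihood (two-sided) in edgeR 4.0.16 (R 4.3.3, robust, treatment as the single term), with Benjamini-Hochberg adjustment over 13076 genes. Each standard error was worked out from its F statistic and fold change. Exact permutation tests used scipy 1.17.1. The steps were tested on simulated counts. Replicates of a group differed by more than sampling noise (chi-square per degree of freedom 5.45 to 16.1). It was 16.1 and 13.1 for the pairs with Sardomozide library 2, and 9.06 for Sardomozide libraries 1 and 3. Alternatives were RLE, upper-quartile and no scaling, other filters, DESeq2 1.42.0, limma-voom (limma 3.58.1), a replicate block, no robust estimation, a threshold of 0.01, leaving out Rn45s and leaving out each library; leaving out libraries was also run on the ratios of partner genes, which were added after the data were seen. Gene coordinates came from GENCODE M21 and promoters from RefSeq, both GRCm38. Full values were given for genes that passed, for Pol I genes, Myc and Rn45s, for some that did not pass, picked after their values were seen, and for up to 3 called genes of each other list. The members and lists were chosen with earlier results of these data known.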

Additional observations from a re-analysis of the deposited data

How the results depend on the processing

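With RLE, upper-quartile or no scaling, no filter, the stricter filter, DESeq2, limma-voom, no robust estimation or Rn45s left out, 20 to 23 of the 58 genes rose and 1 fell, against 21 and 1. The median log2 fold change of all genes stayed between −0.002 and −8.8e-05 over the scalings, so scaling turned no direction among the 58 genes, but upper-quartile scaling, like no filter, brought Nop58 past the threshold, for 5 box C/D and H/ACA genes instead of 4. With no filter 2 Pol I transcription genes passed instead of 1. At a threshold of 0.01, 12 of the 58 genes rose and 0 fell, with 3 small subunit genes, 4 large subunit genes and 7 other pathway genes, and 501 and 578 of all genes instead of 1030 and 1105. Leaving out 1 library at a time, 15 to 20 of the 58 genes rose and 0 or 1 fell. Over these fits 1 to 2 Pol I transcription genes rose, as did 3 to 4 box C/D and H/ACA genes, 3 to 6 small subunit genes, 4 to 6 large subunit genes and 7 to 19 other pathway genes. Of all genes 620 to 927 rose and 706 to 1025 fell. Such fits have fewer libraries; of the 21 genes that rose, 12 passed in all 6 of them. Directions turned only for genes that did not pass. Over the fits that leave out 1 library their log2 fold changes ran from −0.139 to 0.0821 for Polr1e, −0.0276 to 0.105 for Gar1, −0.0197 to 0.104 for Utp3, −0.00257 to 0.0907 for Utp18, −0.000209 to 0.091 for Bms1, −0.0432 to 0.137 for Nat10 and −0.0261 to 0.00409 for Npm1. The difference in the share of Rn45s was 0.315 percentage points, 0.33 without the 10 most abundant other genes, and 0.266 to 0.396 without a library (exact permutation p = 0.2, the smallest possible there). The labels do not say whether the replicate numbers pair the libraries. Deviations of same-numbered libraries correlated at −0.051 to −0.014, and those of differently numbered libraries at −0.062 to 0.078. No effect shared by number was visible, which cannot exclude pairing. With the number as a block 21 of the 58 genes rose and 1 fell, Rn45s passed (edgeR adjusted p = 0.000611) and Nop14 did not (0.0562), and 855 of all genes rose and 965 fell. The cause of these changes was not tested.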
